A study of Mus musculus with 41 samples.

Results

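Heat shock proteins are chaperones that bind unfolded or partly folded proteins and return them to a working shape. The genes described here are all those in the count tables whose symbol begins with Hspa, Hspb, Hspd1, Hspe1, Hsph1, Hsp90, Dnaja, Dnajb or Dnajc, or is Bag followed by a digit. This rule found 80 of 24371 genes, and each had counts in at least 1 bulk library. They comprise 14 Hsp70 and Hsp110 genes, 3 Hsp90 genes, 2 genes of the mitochondrial chaperonin, 4 class A, 13 class B and 28 class C J-domain genes, 10 genes whose symbol starts with Hspb and 6 BAG genes.

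Hsp70 proteins clamp onto exposed stretches of a client protein in a cycle driven by ATP. J-domain proteins bring clients to Hsp70 and start ATP hydrolysis, and BAG proteins and Hsp110 release the bound nucleotide, so the client can be let go. Small heat shock proteins hold clients without using ATP. Hsp90 takes over clients such as the unliganded glucocorticoid receptor, which is loaded through Hsp70 and J proteins and matured with cofactors such as Fkbp4, Fkbp5 and Ptges3. In the lung, this receptor is known for maturing the fetal organ before birth, and dexamethasone is a synthetic ligand for it.

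All samples were fetal mouse lung. In the first set, mice carrying Twist2Cre;Rosa26mT/mG or only Rosa26mT/mG were mated, dams received intraperitoneal dexamethasone at 1 mg/kg or saline at E18.5, and fetal lungs were taken 2 hours later and pooled by genotype. In this reporter, cells in which Cre from the Twist2 gene has acted change from tdTomato to GFP, and tdTomato-/GFP+ cells were sorted as mesenchyme, which gave 4 dexamethasone and 2 saline pools. Twist2 marks cells that express it or descend from cells that did, so the sorted population can hold several mesenchymal lineages. In the second set, 2 CD106+ and 2 CD106- libraries were made at E18.5, with 1 further CD106+ library labelled as dexamethasone at 1 mg/kg. CD106 is the surface protein encoded by Vcam1. The labels give no transgene for these libraries and no separate harvest time for the treated one. In the third set, wild-type C57Bl6/J dams were injected at E17.5 with 2 mg/kg dexamethasone or saline, and 15 and 11 cells were profiled individually 24 hours later. The cells were thus E18.5 at harvest. The labels name no litters or animals for any set, and a p-value here covers only the variation among the samples at hand, part of which can be technical.

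Totals were 1670900 to 4224240 counts in the mesenchyme pools, 4987180 to 7133940 in the CD106 libraries, 3790540 in the dexamethasone CD106+ library and 215623 to 1788000 in the cells. Levels are given as CPM, in which every library's counts are scaled to sum to the same total. Fkbp5 and Tsc22d3, textbook glucocorticoid targets, stood at 176 to 260.2 and 125 to 172 CPM in the dexamethasone mesenchyme pools, against 28.7 and 40.7, and 40.7 and 56.3, in saline. In the single cells Tsc22d3 had a mean of 156 CPM after dexamethasone and 772 after saline, the opposite order. Vcam1 stood at 551 and 687 CPM in the CD106+ libraries, 1.35 and 3.00 in CD106- and 268 in the dexamethasone CD106+ library. Twist2 itself was at 0.901 CPM or below in every mesenchyme pool, while summed fibroblast markers stood at 8589.9 to 13428 CPM there. Libraries also differed in cell makeup and sex. Xist, which is transcribed in females, stood at 33133 and 20880 CPM in the saline pools and at 374, 11111, 12.6 and 6.59 in the dexamethasone pools. Summed cartilage markers were 744 to 1744 CPM in saline and 24.1 to 452 in dexamethasone pools. Summed endothelial markers were 2463 CPM in the dexamethasone CD106+ library, against 121 to 139 in the untreated CD106+ libraries. CD106+ libraries also held summed epithelial markers at 3332 to 4972 CPM, so epithelial RNA was present in them.

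Heat and unfolded protein switch many chaperone genes on through short promoter elements. Matches in Hspe1, Hspa5, Hsp90b1 and Dnajc3 are shown here to let the elements be read, and none of these genes passed the test in mesenchyme or between the CD106 fractions. Promoter sequences from RefSeq (GRCm38.p6, 250 bases before to 50 after each start) were found for 65 of the 80 members. Each motif was searched on both strands. The heat shock element, searched as GAANNTTCNNGAA, was in a promoter of 4 of these 65 genes (6.15%: Dnajb6, Hspd1, Hspe1 and Hsph1), against 0.662% of 27025 genes with a promoter. The endoplasmic reticulum (ER) stress element, searched as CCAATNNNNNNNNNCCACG, was in 3 of 65 (4.62%: Hspa5, Hsp90b1 and Dnajc3), against 0.137% of all genes. The glucocorticoid response element, searched as GNACANNNTGTNC, was in 0 of 65, against 0.537% of all genes. A match says only that these letters lie in the window, and a missing match only that they do not. Hspe1 and Hspd1, which encode the small and large subunits of the mitochondrial chaperonin, are transcribed away from each other, and the same overlapping pair of heat shock elements lies in the promoter of each. The run below is read on the Hspe1 strand, with both elements in capitals, and it lies within the annotated span of Hspd1. The ER runs have the element in capitals, and Hsp90b1 carries it in each orientation.
Hspe1, chr1:55088053-55088082, plus strand: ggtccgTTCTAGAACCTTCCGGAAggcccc
Hspa5, chr2:34772010-34772058, plus strand: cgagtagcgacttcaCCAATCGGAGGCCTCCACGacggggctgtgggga
Hsp90b1 (farther from the start), chr10:86705623-86705671, minus strand: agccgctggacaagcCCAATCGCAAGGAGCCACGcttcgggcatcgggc
Hsp90b1 (nearer), chr10:86705518-86705566, minus strand: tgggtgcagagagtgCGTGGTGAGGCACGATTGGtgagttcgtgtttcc
Dnajc3, chr14:118937812-118937860, plus strand: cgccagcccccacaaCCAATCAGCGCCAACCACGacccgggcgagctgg

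Together the 80 genes held 0.509 to 0.676% of counts in the 6 mesenchyme pools and 1.10 to 1.34% in the 4 CD106 libraries. The dexamethasone CD106+ library held 1.08%. The dexamethasone pools, at 0.532 to 0.672%, lay within the range of the saline pools, at 0.509 and 0.676%. The CD106+ libraries, at 1.16 and 1.19%, lay between the CD106- libraries, at 1.10 and 1.34%, and the dexamethasone CD106+ library was below all 4. Hsp90b1 (ER Hsp90), Hsp90ab1 (constitutive cytosolic Hsp90), Hspa8 (constitutive cytosolic Hsp70) and Hspa5 (BiP, the ER Hsp70) together held 42.3 to 61.5% of the members' counts in each bulk library. These are shares of counts, in which long transcripts weigh more than short ones.

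**Figure D1:**
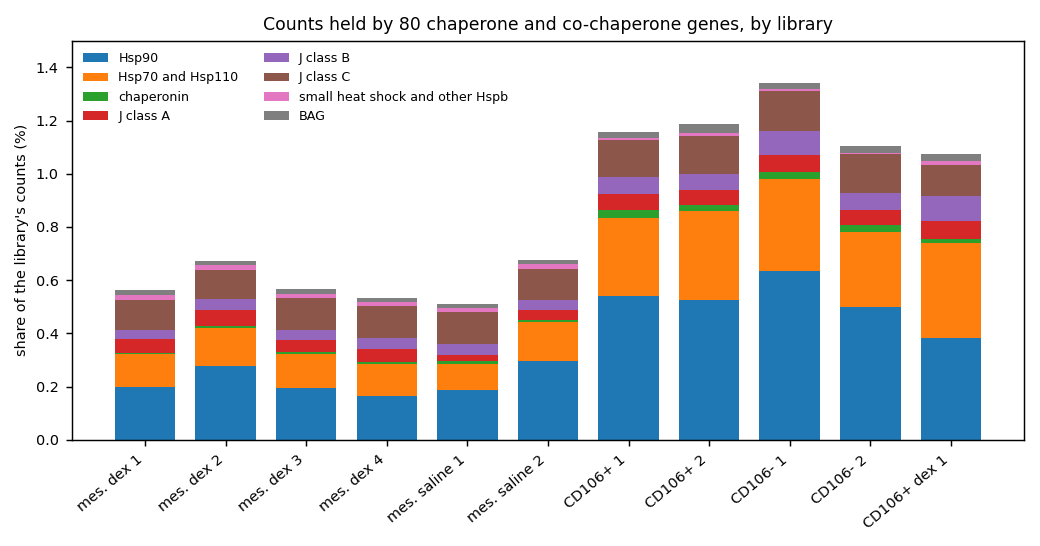
Share of each bulk library's counts (%, stacked bars) held by the 80 chaperone and co-chaperone genes, split by family. The 6 mesenchyme pools reach 0.509 to 0.676%, the 4 CD106 libraries 1.10 to 1.34% and the dexamethasone CD106+ library 1.08%.

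The sets were sorted and prepared differently and their tables are separate, so the following ranges describe the libraries and were not tested. Of 51 members at 20 CPM or more in a mesenchyme pool or a CD106 library, 21 (41.2%) were higher in all 4 CD106 libraries than in all 6 mesenchyme pools, and 6 (11.8%) were lower in all of them. Over all genes these shares were 27.6% and 11.2%. Hsp90b1 was at 880.2 to 1469.6 CPM in the mesenchyme pools and 2891 to 3835 in the CD106 libraries. Hspa5 was at 188 to 465.6 and 793 to 1159 CPM. Hspd1 was at 46.6 to 94.0 and 195 to 275 CPM. None of these ranges overlapped. Hspa8 was at 303 to 531 and 800.0 to 1218 CPM, and the mitochondrial Hsp70 gene Hspa9 at 31.1 to 61.7 and 149 to 170.0 CPM. Members of 1 compartment did not all share an order: the cytosolic Hsp90ab1 overlapped, at 646 to 1448 and 1382 to 2071 CPM. Dnajb1, the class B partner of cytosolic Hsp70 that is induced by heat, was at 44.6 to 74.4 and 208 to 575 CPM. The 6 members in the opposite order were Dnajb4, Dnajb9, Dnajc1, Hspa2 and the small heat shock genes Hspb1 and Hspb6. Hspb6 was at 36.0 to 81.4 CPM in mesenchyme and 22.3 to 34.9 in the CD106 libraries.

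The first comparison asks which of these genes differ in mesenchyme 2 hours after dexamethasone. Hspb8 and Dnaja1 rose, and no member fell. Fold changes and p-values come from edgeR's quasi-likelihood test, with p adjusted by the Benjamini-Hochberg method over all 11356 genes tested. In this fit 65 members had enough counts to test and 15 did not. Of the 65, 2 (3.08%) passed an adjusted p of 0.05, and the background was 2.69% of all genes, with 1.95% higher and 0.740% lower. Without adjustment 6 of the 65 members had a p under 0.05, and 1571 of all 11356 genes did, a larger share. The members' median log2 fold change was 0.08, with 36 above zero and 29 below, and the median of all genes tested was -0.01.

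Hspb8 encodes a small heat shock protein that works with Bag3 to send damaged proteins to autophagy (chromosome 5, 116408491 to 116422864 in GRCm38). It stood at 63.9, 77.8, 35.6 and 40.7 CPM in the dexamethasone pools and at 10.8 and 14.4 in the saline pools. The lowest dexamethasone pool was above the higher saline pool. The means were 54.5 ± 19.8 and 12.6 ± 2.56 CPM (SD, n = 4 and 2), a log2 fold change of 2.17 (SE 0.42, adjusted p = 0.0081 by edgeR). The call was lost without saline pool 1 (adjusted p = 0.062 by edgeR) and with the cartilage marker level of each pool as a covariate (log2 fold change 1.22, adjusted p = 0.945 by edgeR), and it held with the Xist level as a covariate (2.85). The parts of the cartilage and sex differences in this result cannot be told apart from treatment. All saline pools were above all dexamethasone pools in the cartilage markers and in Xist, so neither covariate fit can separate them. Bag3, its partner, showed no such pattern, at 60.8, 31.6, 35.1 and 33.9 CPM against 38.3 and 44.0.

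Dnaja1 encodes the main class A J protein of the cytosol, which hands clients, the glucocorticoid receptor among them, to Hsp70 (chromosome 4, 40722468 to 40734965). It stood at 418, 531, 378 and 376 CPM after dexamethasone and at 175 and 276 after saline, again without overlap. Its means of 426 ± 72.6 and 225 ± 71.1 CPM (SD, n = 4 and 2) gave a log2 fold change of 0.99 (SE 0.24, adjusted p = 0.034 by edgeR). Its counts were fractional in every bulk library, so they may include reads shared with other loci and are uncertain. The call was lost without saline pool 1 (adjusted p = 0.282), without dexamethasone pool 1, 2 or 4 (0.0663, 0.0751 and 0.0633), on column totals (0.064) and with the cartilage covariate (0.967), all by edgeR.

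No other class A member passed the test. Dnaja3 and Dnaja4 had log2 fold changes of 0.39 (SE 0.56) and 1.26 (SE 1.06) by edgeR, so a rise like that of Dnaja1 is not excluded for them. Dnaja2, a close relative that also serves Hsp70, stood at 61.1, 64.9, 59.0 and 81.8 CPM after dexamethasone and 65.2 and 76.1 after saline. None of the 3 Hsp90 genes passed the test, and their groups overlapped. Hsp90aa1, the stress-inducible cytosolic form, stood at 63.2, 80.2, 111 and 111 CPM against 107 and 167 (log2 fold change by edgeR -0.52, SE 0.28, adjusted p = 0.443). For Hsp90ab1 the values were 864, 1229, 719.6 and 646 CPM against 871 and 1448 (-0.35, SE 0.26, adjusted p = 0.622 by edgeR). Hsp90b1 differed by 0.08 (SE 0.23), and its pools at 880.2 to 1469.6 CPM spanned both saline pools.

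Among Hsp70 genes, Hspa8 stood at 471, 531, 426 and 439 CPM against 303 and 448, and Hspa5 at 268, 352, 315 and 284 against 188 and 465.6. In both genes the saline pools lay far apart, and the dexamethasone values fell between or near them (log2 fold changes 0.38 and -0.02, adjusted p = 0.477 and 0.99 by edgeR). Hspa1a and Hspa1b, neighbouring and nearly identical genes for the inducible Hsp70, were low in all but 1 pool. Hspa1a stood at 27.2 CPM in saline pool 1 and at 0.82 in saline pool 2, with 0.47 to 6.94 in the dexamethasone pools. Hspa1b stood at 27.2 and 1.65 CPM in saline and at 2.04 to 8.80 after dexamethasone. Their negative fold changes (-2.40 and -1.45, adjusted p = 0.342 and 0.528 by edgeR) rest on that pool, and without it both were positive, at 1.75 and 1.72. Reads could be split between such copies, so each value is uncertain. Hsph1, the Hsp110 gene that releases nucleotide from Hsp70, stood at 55.1 to 92.3 CPM after dexamethasone and at 51.5 and 91.3 after saline.

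The groups did not overlap for 14 of the 65 members. In 7 (10.8%) all dexamethasone pools were higher, and the background was 9.99%. These were Hspb8, Dnaja1, Bag4, Dnajb12, Dnajb14, Dnajc28 and Hspb1. In another 7 (10.8%, with a background of 13.0%) all were lower, namely Dnajb11, Dnajc2, Dnajc6, Dnajc15, Hspb6, Hspb7 and Hspd1. Hspb1, a small heat shock gene induced by heat, had a log2 fold change of 0.81 (SE 0.44, adjusted p = 0.447 by edgeR), and Hspd1 of -0.45 (SE 0.28, adjusted p = 0.54 by edgeR).

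Hspb7, the small heat shock gene of heart and muscle, was below the saline pools in every dexamethasone pool, and was picked out after its values were seen. It stood at 19.4, 22.4, 32.0 and 24.5 CPM after dexamethasone and at 47.3 and 69.9 after saline, a log2 fold change of -1.19 (SE 0.34; by edgeR, adjusted p = 0.071). DESeq2 and limma-voom placed it past the threshold (adjusted p = 0.034 and 0.045). Summed cardiac and skeletal muscle markers moved with it, at 167 to 295 CPM in the dexamethasone pools and 358 to 409.6 in saline, with 3 and 4 of the 13 markers at 0. Summed smooth muscle markers were also lower, at 1160 to 1239 CPM in the dexamethasone pools and 1789 to 2177 in saline. The part of these muscle markers in the result was not tested. In bulk samples, fewer cells of a type and less RNA per cell cannot be told apart.

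**Figure D2:**
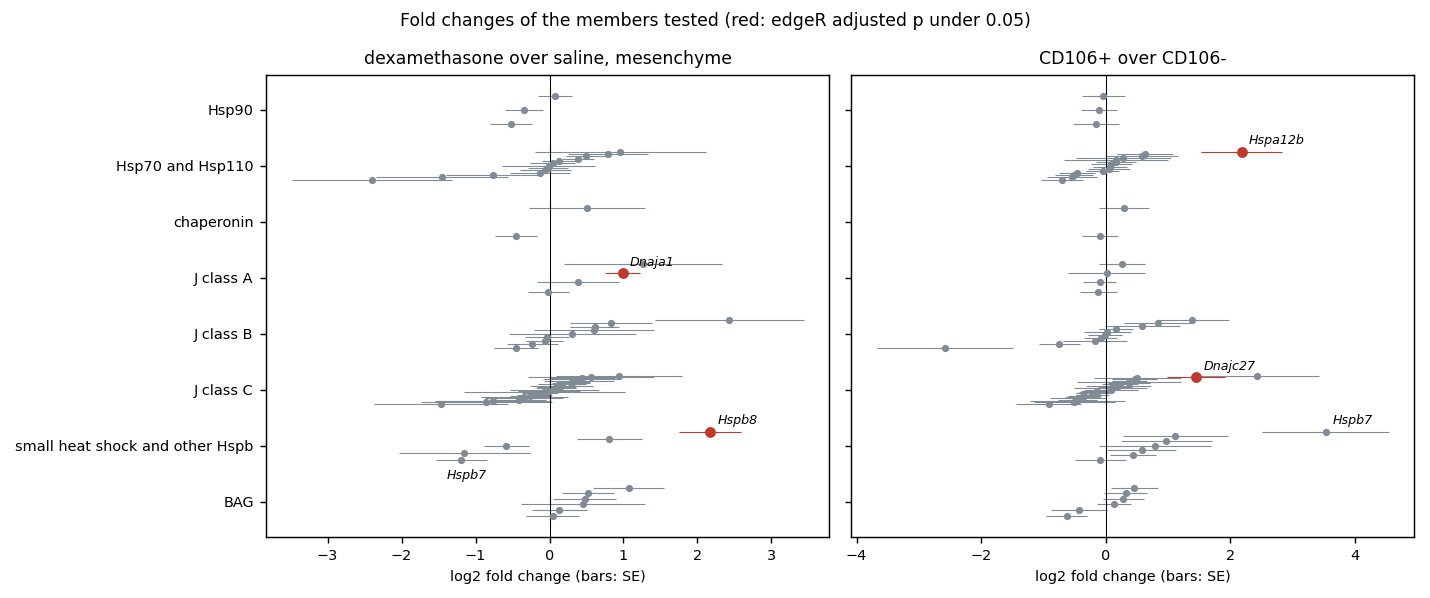
Log2 fold change of each tested member (points, with SE as bars) by family, for dexamethasone over saline in mesenchyme (left, 65 members) and CD106+ over CD106- (right, 69 members). Red points passed an adjusted p of 0.05 by edgeR: Hspb8 (2.17) and Dnaja1 (0.99) on the left, and Hspa12b (2.18) and Dnajc27 (1.45) on the right.

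Genes that work with these chaperones were followed as lists. Of 22 Hsp90 and Hsp70 cofactors, 2 rose and 0 fell after dexamethasone, with a median log2 fold change of 0.15. Fkbp5, an immunophilin that keeps the receptor in a form of low ligand affinity, rose by 2.59 (SE 0.29), and Cdc37l1, a relative of the kinase cochaperone Cdc37, rose by 1.20 (SE 0.24, adjusted p = 0.01 by edgeR). Cdc37l1 stood at 578, 644, 741 and 689 CPM against 357 and 241. The lists of 3 heat shock factors and regulators, 12 chaperonin TRiC and prefoldin subunits, 19 ER folding genes and 6 mitochondrial quality genes that could be tested had 0 genes past the threshold. Hsf1, the heat shock factor that drives the heat response, stood at 48.3 to 63.0 CPM after dexamethasone and at 73.6 and 35.4 after saline. Of 10 early genes known to respond to tissue dissociation, 1 rose (Dusp1, which is also a glucocorticoid target) and 3 fell (Egr1, Btg2 and Nr4a1).

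By compartment, none of the 8 ER members and none of the 9 mitochondrial members tested in mesenchyme passed the threshold, with medians of 0.19 and 0.07. A list of 13 heat-inducible members had 2 past it, the same Hspb8 and Dnaja1, with 7 above zero and 6 below and a median of 0.04. All 6 BAG genes had positive fold changes (median 0.46), and 0 of them passed the test. Over all genes tested 49.1% were positive. Bag3 was at 0.04 (SE 0.35), and Bag3 and Bag6 changed sign in some other settings. Bag1, which releases nucleotide from Hsp70, stood at 43.8, 43.8, 44.6 and 30.2 CPM against 24.5 and 34.5, so the ranges overlapped.

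**Figure D3:**
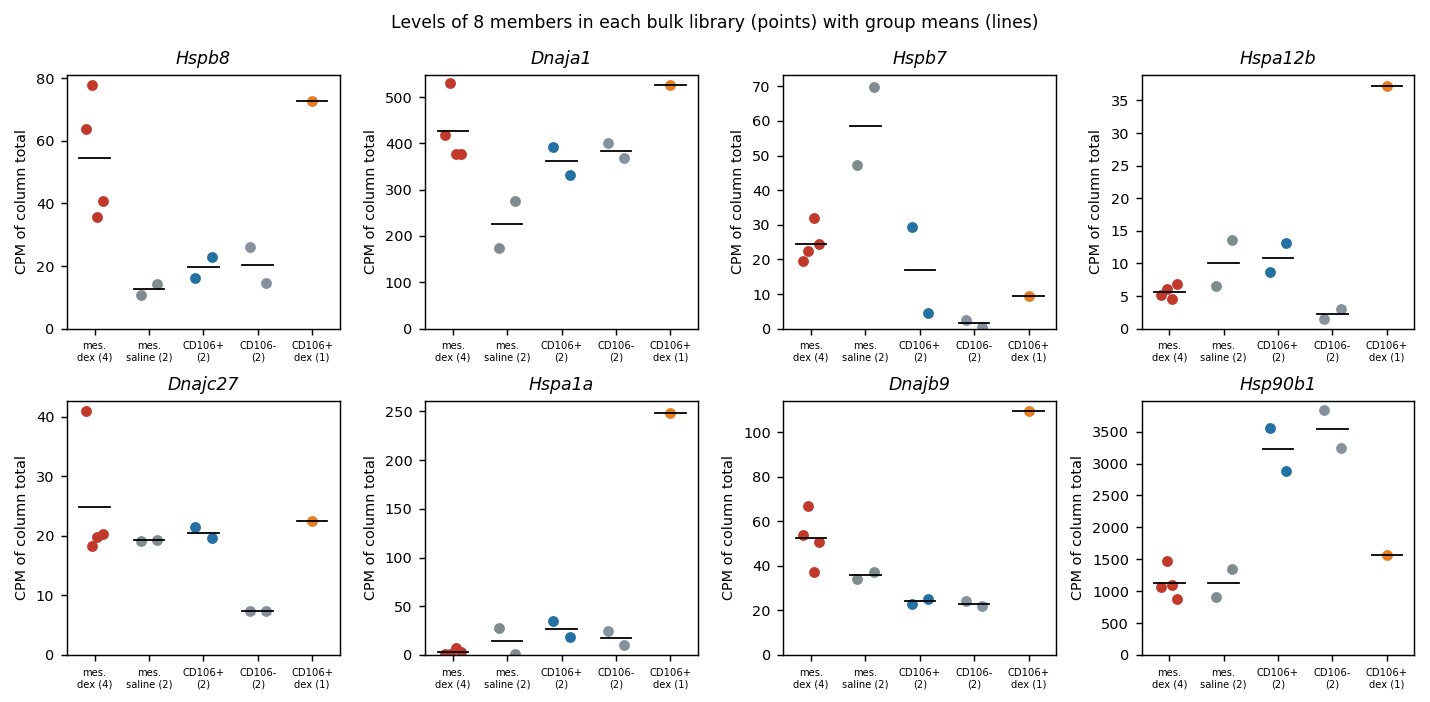
CPM of 8 members in each bulk library (points), with group means (lines) and the number of libraries in brackets. Hspb8 is at 35.6 to 77.8 CPM in the dexamethasone mesenchyme pools and at 72.8 in the dexamethasone CD106+ library, above all untreated mesenchyme and CD106+ libraries.

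CD106+ and CD106- libraries were compared to ask whether cells carrying this surface protein differ in chaperone expression. Hspa12b and Dnajc27 were higher in CD106+, and no member was lower. Of 69 members tested, 2 (2.90%) were called, and the background was 10.0% of 12364 genes, with 6.67% higher and 3.35% lower. Without adjustment 8 of the 69 members had a p under 0.05, and 2446 of all 12364 genes did, a larger share. The median log2 difference was 0.08 for the members and 0.05 for all genes. The groups did not overlap for 18 members higher in CD106+ (26.1%, with a background of 25.7%) and 10 lower (14.5%, with a background of 22.1%).

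Hspa12b encodes a distant Hsp70 relative known from endothelial cells (chromosome 2, 131127412 to 131145985). It stood at 8.62 and 13.2 CPM in the CD106+ libraries and at 1.54 and 3.00 in the CD106- libraries, with no overlap (log2 difference 2.18, SE 0.65, adjusted p = 0.030 by edgeR). Endothelial markers were higher in the same libraries, with all 10 summing to 121 to 139 CPM in CD106+ and 17.1 to 23.1 in CD106-, where 2 of them were at 0. Pecam1, 1 of these 10 markers, stood at 22.1 and 16.54 against 3.85 and 1.00 CPM. Their part in the Hspa12b difference was not tested. The call was lost without CD106+ library 2 (adjusted p = 0.103), CD106- library 1 (0.369) or CD106- library 2 (0.076), all by edgeR.

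Dnajc27, also called Rbj, encodes a small GTPase with a J domain (chromosome 12, 4082569 to 4124140). It stood at 21.5 and 19.6 CPM in CD106+ and at 7.31 and 7.32 in CD106-, so the replicates of each fraction were close (log2 difference 1.45, SE 0.47, adjusted p = 0.047 by edgeR). The value lies near the threshold. It was lost on column totals (adjusted p = 0.065 by edgeR), in limma-voom (0.056), and without CD106+ library 1 (0.056), CD106- library 1 (0.381) or CD106- library 2 (0.32). In mesenchyme Dnajc27 ranged from 18.3 to 41.0 CPM.

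Hspb7 was far above the other libraries in 1 CD106+ library only. It stood at 29.5 and 4.49 CPM in CD106+ and at 2.50 and 0.50 in CD106- (log2 difference 3.53, SE 1.01, adjusted p = 0.060 by edgeR). The call depended on the setting: 8 of 15 alternatives placed it past the threshold, among them DESeq2 (adjusted p = 0.0015) and edgeR with no filter on low counts (2.8e-06), on column totals (0.037) and with 10 counts in every library of a group (0.041). It also passed without CD106+ library 2 (1.4e-12), CD106- library 1 (0.00017) or CD106- library 2 (0.026) by edgeR. Heart muscle genes were high in that same library: Actc1 stood at 580.3 CPM there, 32.5 in the other CD106+ library and 51.7 and 16.0 in CD106-. Their part was not tested. Without CD106+ library 1 the Hspb7 difference was 1.49 and was not past the threshold (adjusted p = 0.353 by edgeR), the highest value over the 15 alternatives.

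The abundant chaperones were close in the 2 fractions. Log2 differences were -0.16 for Hsp90b1, -0.04 for Hsp90ab1, -0.11 for Hsp90aa1, 0.09 for Hspa8, 0.16 for Hspa5 and -0.10 for Hspd1, with SE of 0.29 to 0.37. The adjusted p-values by edgeR were 0.868 to 0.971. These values do not show that the fractions are equal, since each difference is known only to within its SE. Dnajb1 stood at 326 and 208 CPM in CD106+ and at 575 and 312 in CD106- (log2 difference -0.74, SE 0.33, adjusted p = 0.199 by edgeR). The lower CD106- library overlapped the higher CD106+ library.

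CD106+ library 1 had a large effect on some differences. Without it a single CD106+ library is left, so effect sizes alone are given. The log2 differences were then 0.92 for Bag3, 0.73 for Bag6 and 2.39 for Hspa12b. They were -1.20 (SE 0.23) for Dnajb1, -0.62 for Hspa4, -0.95 for Hspa4l and -0.91 (SE 0.24) for Hsph1. These members were picked because they passed the threshold in that fit. The median was 0.06 for all members tested and 0.05 for all genes. In that fit the remaining CD106+ library is assumed to vary like the CD106- pair. Among the lists, 0 of 22 cofactors, 0 of 20 ER folding genes, 0 of 3 heat shock factors and regulators and 0 of 7 mitochondrial genes passed, and of 14 TRiC and prefoldin subunits Pfdn5 was higher (1.48, SE 0.47, adjusted p = 0.045 by edgeR). Of the 12 dissociation genes Atf3 was lower in CD106+.

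The dexamethasone CD106+ library was then set against the 2 untreated CD106+ libraries, which also served in the comparison just given. With 1 treated library there is no replicate check, and ratios are log2 of CPM plus 1 against the mean of the untreated pair. Among members at 20 CPM or more, the Hsp70 genes Hspa1b, Hspa1a and Hspa2 had the highest ratios in this library, and the J-domain genes Dnajc9, Dnaja3 and Dnajc10 the lowest. Of 48 members at 20 CPM or more, 14 (29.2%) were past 2-fold, 9 higher and 5 lower. The background was 28.2% of 7755 genes, with 11.3% higher and 16.8% lower. The members' median ratio was 0.07, and that of all genes was -0.22. Between the untreated libraries 3 of the 48 were 2-fold apart. No share over all genes is given for that pair, so this count is no check on the treated ratios.

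Hspa1a stood at 248 CPM in the treated library and at 35.2 and 18.9 in the untreated ones, a log2 ratio of 3.15. Hspa1b stood at 111 against 12.5 and 7.91 CPM (3.33). Hspa1l, the third gene of that cluster, stood at 20.9 against 5.03 and 3.92 CPM (2.00). These genes are close copies, so the ratios are not independent of each other. Hspa2, a further Hsp70 gene, stood at 34.0 against 1.00 and 5.33 CPM (3.07). Hsph1 stood at 373 against 174 and 112 CPM (1.37). Its promoter window carries a heat shock element, as do those of Hspd1 (-0.63), Hspe1 (-0.15) and Dnajb6 (0.09). The part of the element in these ratios was not tested.

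Beyond Hsp70, both small heat shock genes with the highest ratios had small levels in the untreated libraries. Hspb8 stood at 72.8 against 16.2 and 23.0 CPM (1.84), and Hspb1 at 35.1 against 10.0 and 9.67 (1.73). Dnajb9, an ER J protein that binds BiP and restrains the stress sensor Ern1, stood at 109.7 against 22.9 and 25.3 CPM (2.14). Hspa12b was at 37.2 against 8.62 and 13.2 CPM (1.68). In the list of 13 heat-inducible members 5 were past 2-fold higher and 0 lower, with a median of 0.74. Over all genes 11.3% were past 2-fold higher and 16.8% lower. The close copies Hspa1a and Hspa1b are both among the 5. Not all of the list moved alike: Hspa8 was at 975 against 924 and 1218 CPM, between the untreated libraries, and Hspd1 at 152 against 275 and 195, below both.

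Of the 5 members past 2-fold lower, 3 are known to act in the ER or mitochondria. Hsp90b1, whose promoter has the pair of ER stress elements shown above, stood at 1561 against 3563 and 2891 CPM (-1.05). Dnajc10, an ER disulfide reductase with a J domain, stood at 64.4 against 130.1 and 170.3 (-1.21), and the mitochondrial Dnaja3 at 10.0 against 26.5 and 30.3 (-1.41). Dnajc9, a histone chaperone with a J domain, had the lowest ratio, at 30.3 against 95.0 and 92.5 CPM (-1.60). Bag4 stood at 14.0 against 31.7 and 27.3 (-1.03). Against CD106+ library 2 alone, Hsp90b1 and Bag4 came to -0.89 and -0.92 and were not past 2-fold.

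The 3 members with an ER stress element had ratios from -0.14 for Hspa5 to -1.05 for Hsp90b1 in this library, and the median of all genes was -0.22. In the edgeR fit with all CD106 libraries Hspa5 was at 0.01. The part of the element in these ratios was not tested. Hspa5 stood at 935 CPM, between the untreated values of 908 and 1159, while Dnajc3, an inhibitor of the stress kinase Eif2ak3, stood at 204 against 272 and 277 (-0.42). Of 8 ER members, 1 was past 2-fold higher and 2 lower. Among 16 ER folding genes that are not members, 3 were higher (Atf4, Ern1 and Herpud1) and 4 lower (Pdia3, Pdia4, P4hb and Sel1l). Ern1, the sensor that Dnajb9 restrains, stood at 48.3 against 12.2 and 13.9 CPM. Among 19 cofactors at 20 CPM or more, 2 were higher and 5 lower. The higher ones were Fkbp5, at 49.6 against 12.6 and 35.5 CPM, and Unc45b, at 58.0 against 10.2 and 2.10. Fkbp4, which links the receptor to dynein, was at 43.0 against 100.3 and 179.6 CPM, and Ptges3, the p23 protein that completes the receptor complex, at 43.5 against 90.4 and 89.3.

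Cell makeup differed between these libraries. All 9 endothelial markers at 20 CPM or more were past 2-fold higher in the treated library, where Pecam1 stood at 508 CPM against 22.1 and 16.54. Summed immune markers were 114 CPM against 7.62 to 17.8. Summed fibroblast markers were 3996 against 5107 to 7528 CPM. Of the 12 dissociation early genes 4 were past 2-fold higher and 0 lower, with a median log2 ratio of 0.25. Over all genes 11.3% were past 2-fold higher and 16.8% lower. Dusp1, which is also a glucocorticoid target, stood at 901 against 198 and 236 CPM. Egr1 was below both untreated libraries, at 1041 against 2065 and 1789 CPM. The part of each in the members' ratios was not tested.

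**Figure D4:**
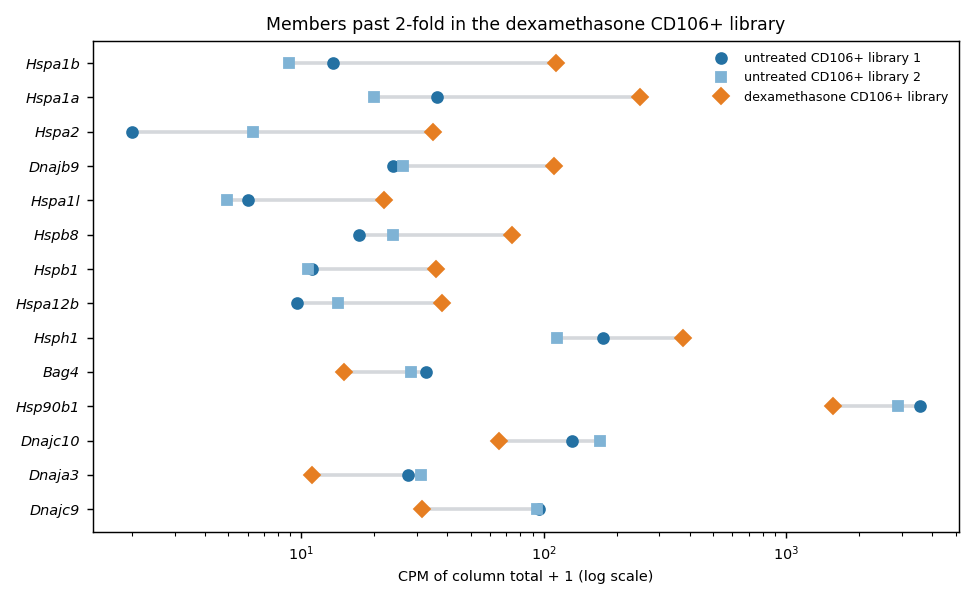
CPM plus 1 (log axis) of the 14 members past 2-fold in the dexamethasone CD106+ library (diamonds), with both untreated CD106+ libraries (circles and squares). The 9 members at the top are higher in the treated library, led by Hspa1b at 111 against 12.5 and 7.91 CPM, and the 5 at the bottom are lower.

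Treated and untreated values of the mesenchyme and CD106+ sets can be set side by side, though times and sorts differ. Hspb8 was above every untreated library of its set in both, at 35.6 to 77.8 against 10.8 and 14.4 CPM and at 72.8 against 16.2 and 23.0. Dnaja1 was likewise at 376 to 531 against 175 and 276 CPM and at 527 against 391 and 332, a log2 ratio of 0.54 in CD106+. Hspb1 was higher in both sets too. Hspa1a was not: the dexamethasone mesenchyme pools held at most 6.94 CPM. Bag4, the silencer of death domains that binds Hsp70, was in opposite orders, at 16.2 to 24.8 against 10.8 and 8.64 CPM in mesenchyme. Dnajb12, Dnajb14 and Dnajc28 were also higher in every dexamethasone mesenchyme pool. In CD106+ they stood at 8.97, 4.75 and 9.23 CPM, and none of them was above both untreated libraries. Lying above both was common there, at 24 of 48 members with 20 CPM or more. No share over all genes is given for that order.

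In single cells most members had counts in fewer than 13 of the 26 cells. Counts were found for 68 of the 80 in at least 1 of 26 cells, for 20 in 13 cells or more and for 3 in every cell (Hsp90ab1, Hsp90b1 and Hspa8). A cell held counts for 12 to 34 members after dexamethasone (median 22) and 20 to 34 after saline (median 30). Genes with counts per cell also differed, with medians of 3508 and 5198. With no animal or litter named for the cells, each treatment was counted as 1 sample, so there is no test.

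Hspa8 stood at 55.5 to 4153 CPM across the dexamethasone cells (median 917) and at 156 to 4861 across the saline cells (median 2418). Hsp90ab1 stood at 32.65 to 2742 (median 1163) and 1149 to 2739 (median 1788). The ranges overlapped in both. The ER pair had the opposite order of means: Hsp90b1 averaged 1046 CPM after dexamethasone and 401 after saline, and Hspa5 890.3 and 536. In single cells these levels ran from 1.29 to 3047 and from 1.95 to 2256 after dexamethasone. Dnaja1 was found in 12 of 15 dexamethasone cells (median 291 CPM) and in 11 of 11 saline cells (median 133).

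Some members were found in more cells of 1 treatment. Hspa1a had counts in 0 of 15 dexamethasone cells and in 3 of 11 saline cells, at 149, 161 and 267 CPM. A count of 0 in 15 allows a share of up to 20.0% of cells with counts, for counting error alone, and does not limit the share of cells that express the gene. The dexamethasone cells were also shallower, with a median total of 852850 counts against 1349770. The same 3 saline cells held Hspa1b, which was also found in 1 dexamethasone cell. In the other direction, Hspbap1 had counts in 3 of 15 dexamethasone and 0 of 11 saline cells. Dnajb11, an ER J protein that serves BiP, had counts in 3 of 15 dexamethasone and 10 of 11 saline cells, and after thinning each cell to 200000 counts in 0 and 6. Cells with Pecam1 above 100 CPM numbered 1 of 15 and 5 of 11, and 1 dexamethasone cell had Hba-a1 above 1000 CPM. The part of cell type in these values was not tested.

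Of 50 members with a mean of 20 CPM or more, 28 (56.0%) were past 2-fold between the treatments, 16 higher and 12 lower after dexamethasone. The background was 64.8% of 7674 genes, with 29.2% higher and 35.6% lower, so such ratios were common between these cells. The 16 were Bag3, Dnajc2, Dnajc9, Dnajc12, Dnajc15, Dnajc19, Dnajc21, Dnajc24, Dnajc27, Dnajc28, Hsp90b1, Hspa4, Hspa9, Hspb8, Hspbap1 and Hspe1. The 12 were Bag4, Dnajb1, Dnajb9, Dnajb11, Dnajc1, Dnajc3, Dnajc4, Dnajc30, Hspa1a, Hspa1b, Hspa12a and Hsph1. Most of these means rest on a few cells: Hspa9 averaged 97.0 against 1.70 CPM but had counts in 4 of 15 and 3 of 11 cells, and Hspb8 34.4 against 6.38 with counts in 3 and 2. With medians over cells in place of means, only 9 members were at 20 CPM or more, and 6 of them (66.7%) were past 2-fold, 3 in each direction, with a background of 70.4%.

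Across all 26 cells, Hspa8 and Hsp90ab1 levels had a Spearman rho of 0.64. Within the dexamethasone cells it was 0.84 and within the saline cells 0.05. For Hspa5 and Hsp90b1 rho was -0.27 over all cells, -0.50 within dexamethasone and -0.13 within saline cells. These are descriptions over cells that differ in depth. Which cells were prepared together is not given in the sources used here, so a value over all cells may span preparations.

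**Figure D5:**
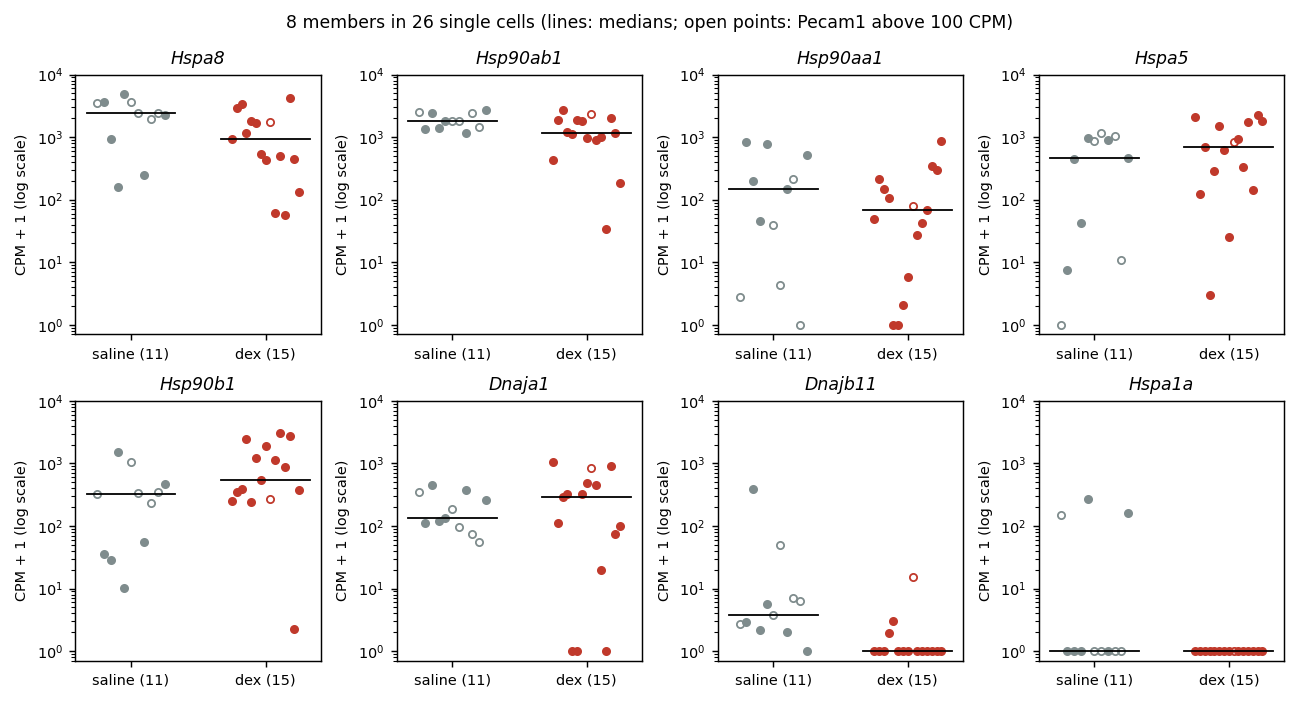
CPM plus 1 (log axis) of 8 members in each of 11 saline and 15 dexamethasone cells, with medians as lines and cells with Pecam1 above 100 CPM as open points. Hspa8 and Hsp90ab1 are present in every cell, and Hspa1a is found in 3 saline cells and in no dexamethasone cell.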

How the data were processed

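The 4 deposited tables hold expected counts per gene symbol, as their fractional values show; for strand, annotation and counting rule the authors' choices were not given in the sources used here. Per the submitters' processing notes, the build was mm10. The tools those notes name, without role or version, were Partek, TopHat2, Bowtie2, Trim Galore, HOMER and MACS2. The number of columns without a sample was 0. The table of the dexamethasone CD106+ library has a coded column name, and that column was assigned because the table is named in the description of that sample alone. The labels' protocols describe the CD106 sort for chromatin accessibility samples (4, not analysed here) and not for RNA.

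Expected counts were rounded. Low counts were filtered by filterByExpr, TMM factors scaled the libraries, and each comparison had its own fit by edgeR's robust quasi-likelihood test (R 4.3.3, edgeR 4.0.16), with Benjamini-Hochberg adjustment at 0.05 over all genes tested; the code was tested on simulated data. Alternatives were other scalings and filters, DESeq2 1.42.0, limma-voom (limma 3.58.1), a replicate block, each library left out, Rn45s or X and Y genes removed, summed Hspa1a and Hspa1b, covariates, other pseudocounts and, added after the data were seen, removal of a cell with Hba-a1 above 1000 CPM. Comparisons with 1 sample per group used the log2 ratio of CPM, each with a pseudocount of 1, at 20 CPM or more in the higher group. Cells were not clustered, and doublets were not called. Intervals for counts of 0 use 3 counts.

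The members and the gene lists were chosen with earlier results of these data known. Members named are those past the threshold, 19 chaperones fixed as reference points, the 2 with the highest mean CPM in each family, those past 2-fold in the untested comparisons and those picked out in the closing section; Hspb7 was chosen after its values were seen. No replicate pair agreed within sampling noise (chi-square per degree of freedom 9.15 to 37.9). All 80 members had a position in the GRCm38.p6 gene table.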

Additional observations from a re-analysis of the deposited data

Results flagged for a closer look

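Of 26 members examined in the 4 dexamethasone mesenchyme pools, 3 had a pool far from the other three by Dixon's criterion at 95%, which chance alone meets in about 1 of 20 groups. Bag1 was lowest in pool 4, at 30.2 CPM, with the others at 43.8 to 44.6. Bag3 was highest in pool 1, at 60.8 CPM, with the others at 31.6 to 35.1. Dnajc3 was lowest in pool 3, at 145 CPM, with the others at 184 to 190.0.

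Bag4 was picked out because dexamethasone libraries lay on opposite sides of their controls in the 2 sets. The log2 ratio was -1.03 in the CD106+ library and 0.94 between mean levels in mesenchyme, and the difference between them was not tested.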

How the results depend on the processing

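In mesenchyme 306 genes and 2 members were called. Other settings called 24 genes and 0 members (cartilage covariate), 512 genes (DESeq2), 598 genes (no filter on low counts), 186 genes (Xist covariate) and 1 member (column totals), and leaving out 1 library at a time called 179 to 335 genes and 0 to 3 members. In the CD106 comparison (1239 genes, 2 members), limma-voom called 1 member and leaving out 1 library called 546 to 2756 genes and 1 to 7 members. For the CD106+ library from dexamethasone treatment, an edgeR fit with all CD106 libraries, in which the lone library is assumed to vary like the others, called 11 of the 69 members tested, 9 higher and 2 lower, among 1842 of 13708 genes. In the cells 28 of 50 members at 20 CPM were past 2-fold, and with medians over cells 6 of 9 (66.7%, with a background of 70.4%), since fewer members reached 20 CPM. Without Rn45s in the totals the members' share was 1.20% instead of 1.17% in CD106+ and 1.10% instead of 1.08% in the dexamethasone CD106+ library. The cause of these shifts was not tested.

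Replicate numbers did not pair the libraries (correlation of same-numbered deviations -0.054 and 0.050 in mesenchyme, 0.014 in CD106). With the replicate block 2 members were called in each comparison, among 254 genes in mesenchyme and 1276 in CD106, but in CD106 Dnajc27 was no longer called (adjusted p = 0.057 by edgeR) and Hspb7 was (log2 difference 3.39, adjusted p = 0.0001 by edgeR). Under the block the log2 fold change changed sign in mesenchyme for Dnajb1 (0.0976), Dnajc1 (-0.0426), Hspa5 (0.11) and Hsph1 (-0.14).

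Other members that had not passed the test changed sign. In mesenchyme the Xist covariate gave Bag6 -0.29, Dnajb1 0.19, Dnajc1 -0.17, Hsp90ab1 0.19, Hspa5 0.068, Hspe1 -0.22 and Hsph1 -0.39, and the cartilage covariate gave Bag3 -0.59, Dnajb4 0.53, Dnajc3 -0.030, Hsp90b1 -0.0742, Hspa1a 1.74 and Hspa1b 1.16. Column totals gave Bag3 -0.027 and Hsph1 -0.0367, and Hsp90ab1 0.00874 in CD106. In mesenchyme limma-voom gave Hspa5 0.054, and no filter gave Dnaja2 0.00097. In the cells, medians gave Dnajc19 -2.34 and Hspa4 -2.219, and leaving out cells with Pecam1 above 100 CPM gave Dnajc30 3.66. With 1 library left out at a time, log2 fold changes in mesenchyme ran for Bag3 from -0.23 to 0.17, Dnaja2 -0.15 to 0.057, Dnajb1 -0.16 to 0.14, Dnajb4 -0.24 to 0.16, Hsp90ab1 -0.62 to 0.011, Hsp90b1 -0.12 to 0.34, Hspa1a -3.38 to 1.75, Hspa1b -2.39 to 1.72, Hspa5 -0.48 to 0.72, Hspa9 -0.41 to 0.47, Hspe1 -0.10 to 1.82 and Hsph1 -0.25 to 0.47. In CD106 they ran for Bag3 from -0.23 to 0.92, Bag6 -0.38 to 0.73, Dnaja1 -0.32 to 0.065, Dnajb9 -0.0088 to 0.038, Hsp90aa1 -0.31 to 0.070, Hsp90ab1 -0.28 to 0.22, Hsp90b1 -0.40 to 0.048, Hspa8 -0.12 to 0.32, Hspa9 -0.23 to 0.11, Hspb8 -0.43 to 0.33 and Hspd1 -0.45 to 0.19.

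Low counts left 15 members untested in mesenchyme and 11 in CD106, and differences there were not detectable at this depth.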
